A study of Mus musculus with 2 samples.

Results

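Type I interferon-stimulated genes were followed across the cell classes of B16 melanomas, as a set of 39 genes listed by symbol among the 27998 genes of the deposited gene list. All 39 were in it. The rule of the list uses no value of these libraries, but earlier results of these data were known when the members were chosen. The tumors were subcutaneous and grew in mice of 6 to 8 weeks that carried a human LAIR1 transgene under Vav-cre and lacked mouse LAIR1 (LAIR1-/-, C57BL/6J). LAIR1 is an inhibitory collagen receptor of leukocytes, and Vav-cre turns the transgene on across blood cell lineages. One library came from mice given h219-LLG, an antibody against human LAIR1 whose Fc part was altered, and 1 from mice given the isotype antibody, Iso-ctrl. Both hold live CD45+ cells sorted from the tumors and measured by droplet scRNAseq of 3′ ends. The sources used here do not say how many mice were pooled for a library.

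Type I interferons are secreted cytokines that signal through the receptor chains IFNAR1 and IFNAR2 and the kinases JAK1 and TYK2. The signal passes to transcription factors, STAT2 and IRF9 among them, that bind interferon-stimulated response elements in promoters. The genes so induced encode sensors of foreign nucleic acid, blockers of viral replication and parts of the pathway itself, and in tumors the response is known from dendritic cells, macrophages and T cells alike. Interferon gamma, made by T and NK cells, signals through its own receptor and induces many of the same genes.

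The response element can be seen in the promoters of several members. The promoter windows of RefSeq on GRCm38.p6, which run from 250 bases before the start of transcription to 50 bases after it, were searched on both strands for GAAANNGAAA, the core of the element, in which N is any base. On the other strand the core reads TTTCNNTTTC. Of the 39 members, 30 matched an entry of the promoter table by symbol, and 16 of these (53.3%) held the motif, against 1079 of 27025 genes (3.99%) and 1131 of 32851 windows (3.44%). The 16 members held 24 matches, which may overlap, at a median of 69.0 bases before the start. A match is a description of letters and not a shown binding site. Mx1, Usp18, Oas2, Ifi204, Dhx58, Rtp4, Zbp1, Parp14 and Ifi27l2a had no entry.

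The promoters of Isg15 and Ifit1 are shown because these genes stood lower in T cells and higher in macrophages with h219-LLG, and that of Ifit3 because it had the lowest ratio in T cells, all chosen after their values were seen. Each has 280 bases, from 250 before the start to 30 after it, 5′ to 3′ on the strand of the gene, with the motif in capitals. Isg15 lies on the minus strand at chr4:156200789-156201068, Ifit1 on the plus strand at chr19:34640639-34640918 and Ifit3 on the plus strand at chr19:34583279-34583558. The copies of Isg15 overlap and begin 78, 72 and 66 bases before the start, and those of Ifit1 and Ifit3 are on the other strand.
Isg15: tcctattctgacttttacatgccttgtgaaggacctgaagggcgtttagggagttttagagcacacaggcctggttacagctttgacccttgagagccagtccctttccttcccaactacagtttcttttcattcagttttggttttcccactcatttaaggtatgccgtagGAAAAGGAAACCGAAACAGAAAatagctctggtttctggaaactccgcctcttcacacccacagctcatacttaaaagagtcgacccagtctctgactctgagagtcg
Ifit1: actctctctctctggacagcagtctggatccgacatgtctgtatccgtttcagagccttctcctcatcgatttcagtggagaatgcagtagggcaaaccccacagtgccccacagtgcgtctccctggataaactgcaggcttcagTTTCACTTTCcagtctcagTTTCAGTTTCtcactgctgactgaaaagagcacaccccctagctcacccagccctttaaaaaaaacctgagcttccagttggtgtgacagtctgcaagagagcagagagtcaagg
Ifit3: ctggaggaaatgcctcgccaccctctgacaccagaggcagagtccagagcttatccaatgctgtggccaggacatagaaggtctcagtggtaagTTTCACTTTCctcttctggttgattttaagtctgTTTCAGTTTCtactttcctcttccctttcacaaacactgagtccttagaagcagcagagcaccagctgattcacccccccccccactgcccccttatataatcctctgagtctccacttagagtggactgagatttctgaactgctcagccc

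The next 4 are the members with the most UMIs and the motif in the monocytes and macrophages that passed no finer gate, the class with the highest value of the summed ratio, though not beyond counting error. Ifitm3 lies at chr7:141010715-141010994, Ifi203 at chr1:173942463-173942742 and Bst2 at chr8:71537443-71537722, all on the minus strand, and Slfn5 lies at chr11:82951852-82952131 on the plus strand. The motif starts 155 bases before the start of transcription in Slfn5 and 2 and 19 bases after it in Ifitm3.
Ifitm3: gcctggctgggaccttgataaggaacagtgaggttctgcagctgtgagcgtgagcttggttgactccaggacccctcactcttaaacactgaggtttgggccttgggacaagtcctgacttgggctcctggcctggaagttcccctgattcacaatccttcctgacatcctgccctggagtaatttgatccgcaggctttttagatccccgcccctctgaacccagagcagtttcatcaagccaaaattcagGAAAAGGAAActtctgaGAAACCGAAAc
Ifi203: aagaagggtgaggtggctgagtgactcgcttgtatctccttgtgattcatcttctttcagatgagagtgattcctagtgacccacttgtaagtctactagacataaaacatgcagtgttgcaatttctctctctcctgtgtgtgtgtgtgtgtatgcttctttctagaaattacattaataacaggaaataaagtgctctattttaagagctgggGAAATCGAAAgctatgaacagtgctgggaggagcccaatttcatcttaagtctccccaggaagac
Bst2: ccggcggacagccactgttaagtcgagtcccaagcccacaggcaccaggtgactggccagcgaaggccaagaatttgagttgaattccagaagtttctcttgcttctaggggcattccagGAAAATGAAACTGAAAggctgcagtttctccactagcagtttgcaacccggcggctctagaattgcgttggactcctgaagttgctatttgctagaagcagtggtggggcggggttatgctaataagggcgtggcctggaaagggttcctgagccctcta
Slfn5: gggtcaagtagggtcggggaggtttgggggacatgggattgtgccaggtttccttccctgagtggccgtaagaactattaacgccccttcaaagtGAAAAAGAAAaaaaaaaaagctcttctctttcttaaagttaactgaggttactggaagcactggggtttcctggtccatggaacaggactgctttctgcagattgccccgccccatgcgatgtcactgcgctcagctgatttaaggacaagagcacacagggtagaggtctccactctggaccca

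The deposited libraries held 8807 barcodes and 48834592 UMIs (unique molecular identifiers, each a captured RNA molecule) with h219-LLG, and 6133 barcodes and 40339654 UMIs with Iso-ctrl. After filtering, 6909 and 5332 cells remained, with a median of 4838 and 5627 UMIs a cell, so the Iso-ctrl cells were deeper. Of the deposited barcodes, 15.2% and 8.17% had too many mitochondrial UMIs, and 13 barcode sequences occurred in both libraries. Cells were put into classes by the UMIs of marker genes, none of them a member, and a class is called "-like" because it rests on markers alone. Of kept cells, 91.9% and 91.2% had a class. Each condition has 1 library, so no test was made and no replicate check is possible. Values are CPM, the UMIs of a gene per 1000000 UMIs of the class, and ratios are h219-LLG over Iso-ctrl. All intervals are at 95% and cover counting error only, and antibody, mice and library cannot be told apart. In the text, intervals stand in brackets.

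The classes were checked with genes outside the gates. Ebf1, a transcription factor of B cells, had a UMI in 98.8% and 99.6% of B-like cells, and in 1.04% and 1.30% of CD4 naive-like T cells. Bcl11b, a transcription factor of T cells, had one in 83.8% and 76.4% of CD4 naive-like T cells. In C1q macrophage-like cells Apoe, a lipid carrier, had a UMI in 93.6% and 92.5% of cells, and Ms4a7, a membrane protein of macrophages, in 56.0% and 67.7%. The gates could not part gamma-delta T cells, whose marker genes are not in the gene list used here.

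In both libraries the members were highest in classical monocyte-like and lowest in melanoma-like and NK-like cells, leaving out plasma-like cells, which were 2 and 5. Their summed level was 11976 CPM (11822 to 12132) in the h219-LLG and 9095 CPM (8905 to 9287) in the Iso-ctrl library in classical monocyte-like cells. It was 368 and 407 CPM in melanoma-like cells and 1323 and 1272 CPM in NK-like cells. Neutrophil-like cells, at 7331 CPM (7056 to 7614) and 7458 CPM (7122 to 7804), came next to monocytes in the Iso-ctrl library. Below them, the Iso-ctrl levels of cDC2-like cells, of monocytes and macrophages outside the finer gates and of Spp1 or Arg1 macrophage-like cells, 5855, 5705 and 5539 CPM, had overlapping intervals and thus no order beyond counting error. The T cell classes apart from Treg-like cells were between 1639 and 2984 CPM.

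**Figure D1:**
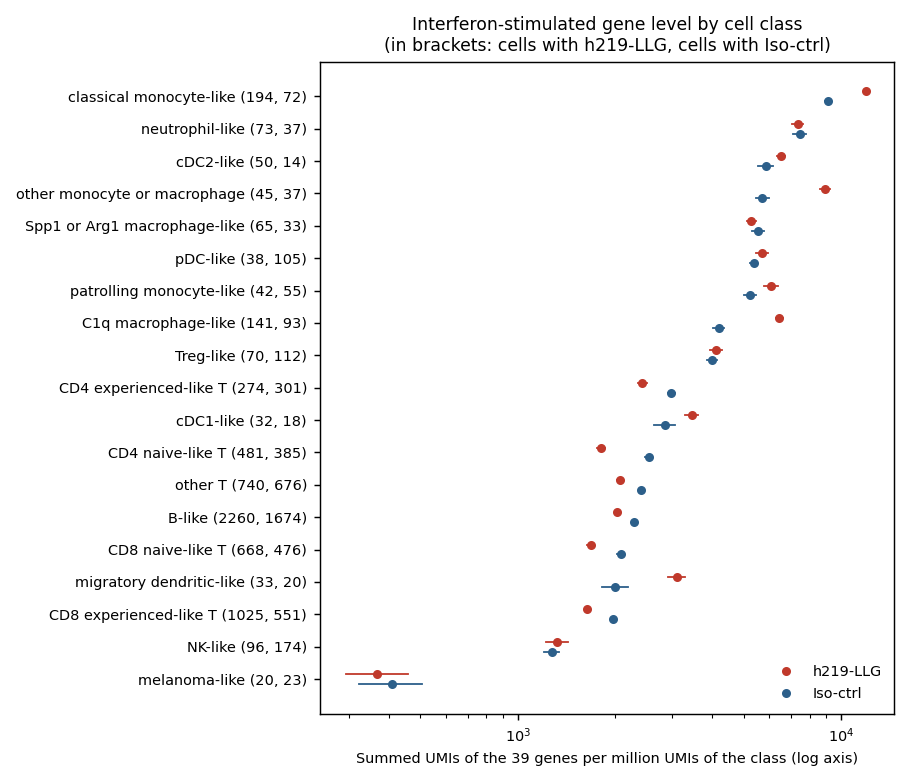
Summed UMIs of the 39 genes as CPM of each cell class (log axis) with h219-LLG in red and Iso-ctrl in blue, with exact Poisson intervals at 95% and the number of cells in brackets. B-like cells and the T cell classes other than Treg-like cells were lower with h219-LLG, while classical monocyte-like (11976 and 9095 CPM) and C1q macrophage-like cells (6442 and 4181 CPM) were higher.

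A few genes carried much of that sum. Ifi27l2a, a small mitochondrial protein induced by interferon, had the most UMIs, 33497 with h219-LLG and 30163 with Iso-ctrl, and made up 26.8% and 28.9% of all member UMIs. Ifitm3, a membrane protein that keeps viruses from entering cells, had 26225 and 13838 UMIs, of which 10232 and 4262 lay in classical monocyte-like cells. In plasmacytoid dendritic-like cells Bst2, the surface protein tetherin, which holds budding viruses at the membrane and is a known marker of these cells, made up 58.7% and 68.0% of member UMIs at 3337 and 3649 CPM. The highest class of each member was sought among the 15 classes with at least 30 cells in each library. In the h219-LLG library 17 of the 39 members were highest in monocytes and macrophages outside the finer gates, a class of 45 cells. Classical monocyte-like cells were highest for 9. In the Iso-ctrl library 12 were highest in neutrophil-like and 11 in classical monocyte-like cells.

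Over all kept cells the libraries were close. The summed level was 3102 CPM (3085 to 3119) in the h219-LLG and 2896 CPM (2879 to 2914) in the Iso-ctrl library, a ratio of 1.07 (1.06 to 1.08). Without Ifi27l2a and Ifitm3, a choice made after the values were seen, the direction turned, with 1619 and 1673 CPM and a ratio of 0.968. Of 39 members, 7 were at least 1.5-fold higher with h219-LLG, where 7.48% of all genes were, and 2 at least 1.5-fold lower, where 5.58% were. Mx1, the myxovirus resistance GTPase, had 523 and 255 UMIs, at a ratio of 1.83 (1.57 to 2.14). Usp18, the protease that takes ISG15 off proteins and damps the receptor, had 653 and 324 UMIs, at a ratio of 1.80. Ifitm3 had a ratio of 1.69 (1.66 to 1.73). The lowest were Ifit1, which binds foreign RNA ends, with 892 and 1479 UMIs, at a ratio of 0.539, Bst2 at 0.576 and Stat2, the transcription factor of the pathway, at 0.713. This sum over all cells mixed classes that went in opposite directions. It also mixed them in unlike shares. Plasmacytoid dendritic-like cells were 0.550% and 1.97% of kept cells with h219-LLG and Iso-ctrl, and classical monocyte-like cells 2.81% and 1.35%. The part of these shares in the ratios of Bst2, Ifitm3 and the other members was not tested.

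In the naive-like and experienced-like T cells most measured members were lower with h219-LLG, and in C1q macrophage-like and classical monocyte-like cells most were higher. The summed ratio was 0.711 (0.685 to 0.738) in CD4 naive-like T cells, 0.814 (0.783 to 0.847) in CD4 experienced-like T cells, 0.808 (0.781 to 0.836) in CD8 naive-like and 0.830 (0.807 to 0.853) in CD8 experienced-like T cells. It was 1.54 (1.47 to 1.61) in C1q macrophage-like cells and 1.32 (1.28 to 1.35) in classical monocyte-like cells. Of 23 members measured in these classes and in the other T cells, that is with at least 50 UMIs over both libraries in each, 14 were below 1 in all 5 T cell classes, where 21.0% of 3539 genes measured in the same classes were, and 20 above 1 in both others, where 35.7% were. Of these, 12 were both, where 5.79% of all genes were, namely Isg15, Ifit1, Irf7, Stat2, Oasl2, Ifih1, Bst2, Rtp4, Zbp1, Parp14, Ifi27l2a and Samd9l. Of these 12, Isg15, Ifit1, Irf7, Oasl2, Ifih1, Rtp4, Zbp1, Parp14 and Samd9l reached 50 UMIs in C1q macrophage-like cells by their h219-LLG counts alone. The counts of members above 1 and of both thus include members kept through the library where they were high. The classes share their libraries, so these counts are not independent observations.

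**Figure D2:**
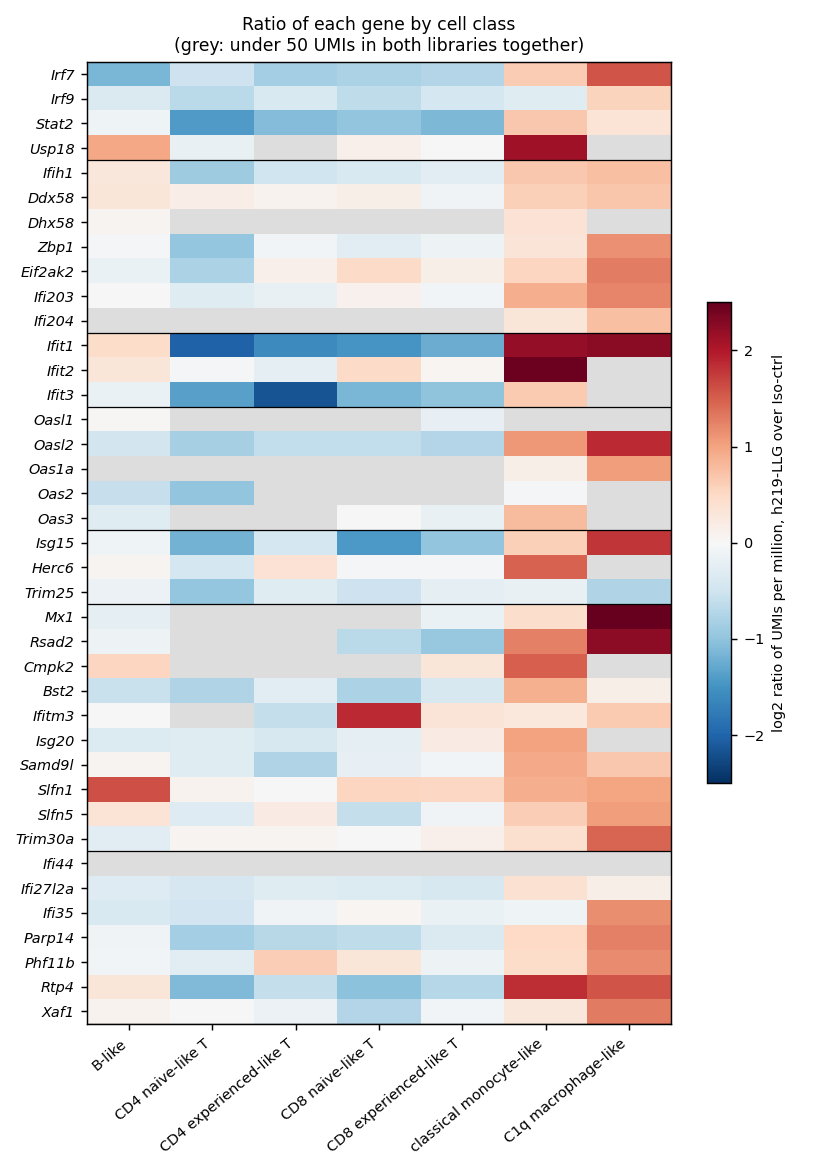
Log2 ratio of CPM, h219-LLG over Iso-ctrl, of each of the 39 genes (one line each, grouped by role) in 7 cell classes, red where higher with h219-LLG and blue where lower, grey where the gene had under 50 UMIs. The T cell columns are mostly blue, down to a ratio of 0.223 for Ifit3 in CD4 experienced-like T cells, and the columns of classical monocyte-like and C1q macrophage-like cells mostly red, up to 6.45 for Mx1.

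Among CD4 naive-like T cells, 481 with h219-LLG and 385 with Iso-ctrl, 29 members were measured. None were at least 1.5-fold higher, where 10.0% of all genes were, and 14 were at least 1.5-fold lower, where 5.89% were. The median log2 ratio of the members was -0.51, and that of all measured genes 0.06. Ifit1 had 56 UMIs with h219-LLG and 216 with Iso-ctrl, 20.9 and 85.7 CPM, a ratio of 0.244 (0.179 to 0.329). Stat2 had 34 and 86 UMIs, at a ratio of 0.372 (0.243 to 0.560), and Ifit3, a partner of Ifit1, 45 and 109 UMIs, at a ratio of 0.389 (0.268 to 0.555). All 3 intervals lay below 1. The members with the highest ratios, Ddx58 (the RNA sensor RIG-I) at 1.13, Slfn1 (of the Schlafen family) at 1.07 and Trim30a (a tripartite motif protein) at 1.05, all had intervals that include 1.

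CD8 naive-like T cells, 668 and 476, showed a like list of low members. Of 31 measured, 13 were at least 1.5-fold lower, where 5.55% of all genes were, and 1 at least 1.5-fold higher, where 9.68% were. Ifit1 had 72 and 176 UMIs, 19.2 and 53.3 CPM, a ratio of 0.361 (0.271 to 0.478). Isg15, a small protein joined to others like ubiquitin, had 80 and 190 UMIs, 21.4 and 57.5 CPM, a ratio of 0.372 (0.283 to 0.485). Ifit3 was at 0.454. The 1 higher member was Ifitm3, with 54 and 13 UMIs, at a ratio of 3.67 (1.97 to 7.32), but 26 of its 54 UMIs lay in 1 cell. Without the highest cell of each library the ratio was 2.25 (1.08 to 5.00). Ifitm3 had a UMI in 4.19% and 2.52% of these cells, below the 5.22% and 4.24% of B-like cells whose cells had a median of 3498 and 4238 UMIs, and no difference is read from it. The monocyte and macrophage gate genes also stood higher there with h219-LLG, at 25.6 and 11.2 CPM, 4 and 3 of 4 genes with a UMI, and so they did in CD4 naive-like T cells, at 28.0 and 14.3 CPM with all 4 found in each library. Their part in the values was not tested. Slfn1, at 1.45 (1.23 to 1.72), and Ifit2, at 1.40 (0.939 to 2.10), came next.

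Experienced T cells carry RNA of activation or effector genes. Of 28 members measured in 274 and 301 CD4 experienced-like T cells, 9 were at least 1.5-fold lower, where 7.16% of all genes were, and 1 at least 1.5-fold higher, where 6.15% were. Ifit3 had 17 and 95 UMIs, 10.2 and 45.7 CPM, the lowest ratio of these classes, 0.223 (0.125 to 0.377). Ifit1 was at 0.332 with 50 and 188 UMIs and Stat2 at 0.475 with 27 and 71. Phf11b, a PHD finger protein, had 65 and 53 UMIs and the highest ratio, 1.53 (1.05 to 2.24), and Herc6, the mouse ligase for ISG15, was at 1.29 (0.905 to 1.83). Slfn5 followed at 1.15 (0.858 to 1.54). In 1025 and 551 CD8 experienced-like T cells, 8 of 34 members were at least 1.5-fold lower, where 5.62% of all genes were, and 0 at least 1.5-fold higher, where 7.84% were. Ifit1 had 108 and 168 UMIs, at a ratio of 0.423 (0.329 to 0.542), Stat2 91 and 130 and 0.461, and Ifit3 128 and 169 and 0.499. The highest were Slfn1 at 1.43 (1.24 to 1.65), Ifitm3 at 1.26 and Cmpk2, a mitochondrial nucleotide kinase, at 1.23, the intervals of the last pair including 1.

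B-like cells, the most numerous class with 2260 and 1674 cells, differed little. Their summed level was 2031 CPM (2000 to 2061) in the h219-LLG and 2291 CPM (2257 to 2326) in the Iso-ctrl library, a ratio of 0.886 (0.868 to 0.905). Of 36 members, 2 were at least 1.5-fold higher, where 6.72% of all genes were, and 1 at least 1.5-fold lower, where 3.89% were. That 1 was Irf7, the transcription factor that amplifies the interferon response, with 181 and 351 UMIs, 21.3 and 47.0 CPM, and a ratio of 0.453 (0.377 to 0.544). Oas2, a synthase of the RNA-degrading signal 2-5A, followed at 0.675 (0.415 to 1.09) and Bst2 at 0.682 (0.600 to 0.775). The higher ones were Usp18, with 62 and 28 UMIs, at a ratio of 1.95 (1.23 to 3.16), and Slfn1, with 66 and 19 UMIs, 7.78 and 2.55 CPM, and a ratio of 3.05 (1.81 to 5.39). Cmpk2 was at 1.44 (0.936 to 2.25). Slfn1 stood at 86.4 and 60.6 CPM in CD8 experienced-like T cells, and T cell gate genes in B-like cells at 19.7 and 4.82 CPM, 3 of 3 with a UMI in each library, and their part in the ratio of Slfn1 was not tested. Ifit1, at 5.66 and 4.15 CPM, was low in B-like cells of both libraries.

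C1q macrophage-like cells, tumor macrophages that make complement C1q, were 141 and 93, fewer than 100 with Iso-ctrl. Of 28 members measured, 23 were at least 1.5-fold higher, where 19.3% of all genes were, and 1 at least 1.5-fold lower, where 5.14% were, and the median log2 ratio was 1.15, that of all genes 0.11. Mx1 had 50 UMIs with h219-LLG and 4 with Iso-ctrl, 42.5 and 6.59 CPM, a ratio of 6.45 (2.37 to 24.6). Ifit1 had 74 and 8 UMIs, 62.9 and 13.2 CPM, a ratio of 4.77 (2.30 to 11.5), and Rsad2, the antiviral enzyme viperin, 64 and 7 UMIs, at a ratio of 4.71 (2.16 to 12.2). Isg15 was at 3.44 (2.16 to 5.73) with 140 and 21 UMIs. Mx1, Ifit1, Rsad2 and Isg15 reached the minimum of 50 UMIs by their h219-LLG counts alone, and so did most other members measured there. Only Ifi204, Bst2, Ifi27l2a, Ifitm3 and Trim25 had at least 50 UMIs with Iso-ctrl. That library also held more UMIs of this class, 1177279 against 607036. The count of 23 thus rests mostly on members kept through the library where they were high. The lowest were Trim25, the ligase that switches on RIG-I, with 94 and 82 UMIs, at a ratio of 0.591 (0.435 to 0.805), Bst2 at 1.11 (0.895 to 1.38) and Ifi27l2a at 1.11 (1.03 to 1.21). Trim25 was at 1.19 as a mean over cells, so its direction depended on how cells were weighted.

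The C1q macrophage-like cells of the libraries were unlike beyond the members. T cell gate genes stood there at 13.6 and 1.65 CPM, 2 and 1 of 3 with a UMI, and their part was not tested. The median depth was 5968 and 4080 UMIs, and 46 (32.6%) and 10 (10.8%) of them held a UMI of Ly6c2, a marker of classical monocytes. In cells with Ly6c2 the summed ratio was 1.14 (1.08 to 1.21), and in the 95 and 83 cells without it 1.84 (1.72 to 1.97), a split chosen after the values were seen. In cells without Ly6c2, Isg15 was at 2.94 (1.64 to 5.66) and Ifit1 at 2.34 (1.05 to 5.90), so both were higher with h219-LLG there too. Ifi27l2a had opposite directions in the 2 sets, at 0.739 (0.665 to 0.821) in cells with Ly6c2 and 1.56 (1.37 to 1.79) in cells without.

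Classical monocyte-like cells, 194 and 72, had the members at their highest level and 21 of 37 measured members at least 1.5-fold higher with h219-LLG, where 9.66% of all genes were. None were at least 1.5-fold lower, where 5.18% were, and the median log2 ratio was 0.62, that of all genes 0.04. Ifit2 had 132 and 12 UMIs, 68.5 and 12.5 CPM, a ratio of 5.50 (3.04 to 10.9). Ifit1 had 91 and 10 UMIs, at a ratio of 4.55 (2.36 to 9.80), and Usp18 95 and 11 and a ratio of 4.32 (2.31 to 8.94). Ifit2, Ifit1 and Usp18 reached the minimum of UMIs for a measured member by their h219-LLG counts alone. That library also held more UMIs of this class, 1926564 against 962982. The count of 21 thus includes members kept through the library where they were high. The lowest were Irf9, the DNA-binding partner of STAT2, at 0.813 (0.622 to 1.07), Trim25 at 0.885 and Ifi35, a binding partner of Nmi, at 0.926, all with intervals that include 1. Ifitm3, already at 4426 CPM with Iso-ctrl, was at 5311 CPM with h219-LLG, a ratio of 1.20 (1.16 to 1.24).

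By role, Irf7 and Stat2 among the transcription factors, Ifit1 in its family and Oasl2 in its family were below 1 in the T cell classes and above 1 in both myeloid classes, while other members of these groups were not all so. Irf7 had 94 and 126 UMIs, at a ratio of 0.703 in CD4 naive-like T cells, 128 and 22 UMIs, 109 and 36.2 CPM, in C1q macrophage-like cells, and 312 and 101 UMIs and 1.54 (1.23 to 1.95) in classical monocyte-like cells. Irf9 had 149 and 224 UMIs, at a ratio of 0.627 (0.506 to 0.774) in CD4 naive-like T cells, 1.46 (0.905 to 2.43) in C1q macrophage-like and 0.813 in classical monocyte-like cells. Ifit2, which binds RNA as Ifit1 does, was at 1.40 in CD8 naive-like and 1.03 in CD8 experienced-like T cells and at 5.50 in classical monocyte-like cells. Oasl2, a member of the OAS family, was at 0.562 (0.364 to 0.858) in CD4 naive-like T cells, 3.65 (2.07 to 6.91) in C1q macrophage-like and 2.13 (1.61 to 2.84) in classical monocyte-like cells. Oas3, which makes 2-5A on long double-stranded RNA, was at 1.72 (1.21 to 2.52) in classical monocyte-like and 0.995 (0.659 to 1.51) in CD8 naive-like T cells, and at 1.25 in the other T cells.

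Of the sensors, Zbp1, which binds Z-form nucleic acid and can start cell death, had 120 and 222 UMIs, at a ratio of 0.509 (0.404 to 0.639) in CD4 naive-like T cells, and 133 and 31 UMIs and 2.21 (1.49 to 3.38) in C1q macrophage-like cells. Ifi203, of the HIN-200 family, was at 242 and 298 CPM in CD4 naive-like T cells, a ratio of 0.813, and at 139 and 59.3 CPM in C1q macrophage-like cells, a ratio of 2.35 (1.63 to 3.47). Its family holds near copies, Ifi204 and Mndal among them, so its counts may be split with theirs, and the same holds for the Oas1, Phf11, Slfn, Trim30 and Ifit3 genes. Parp14, a transferase of ADP-ribose, was at 0.559 (0.462 to 0.675) in CD4 naive-like T cells and 2.40 (1.60 to 3.72) in C1q macrophage-like cells. Rtp4, a chaperone of receptors, was at 0.462 (0.325 to 0.650) in CD4 naive-like T cells with 52 and 106 UMIs, and at 3.57 (2.38 to 5.56) in classical monocyte-like cells with 193 and 27. Ifi44, with 127 UMIs in each library, reached 50 UMIs in none of the classes of the plot of ratios and was highest in plasmacytoid dendritic-like cells, at 54.6 and 30.5 CPM.

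**Figure D3:**
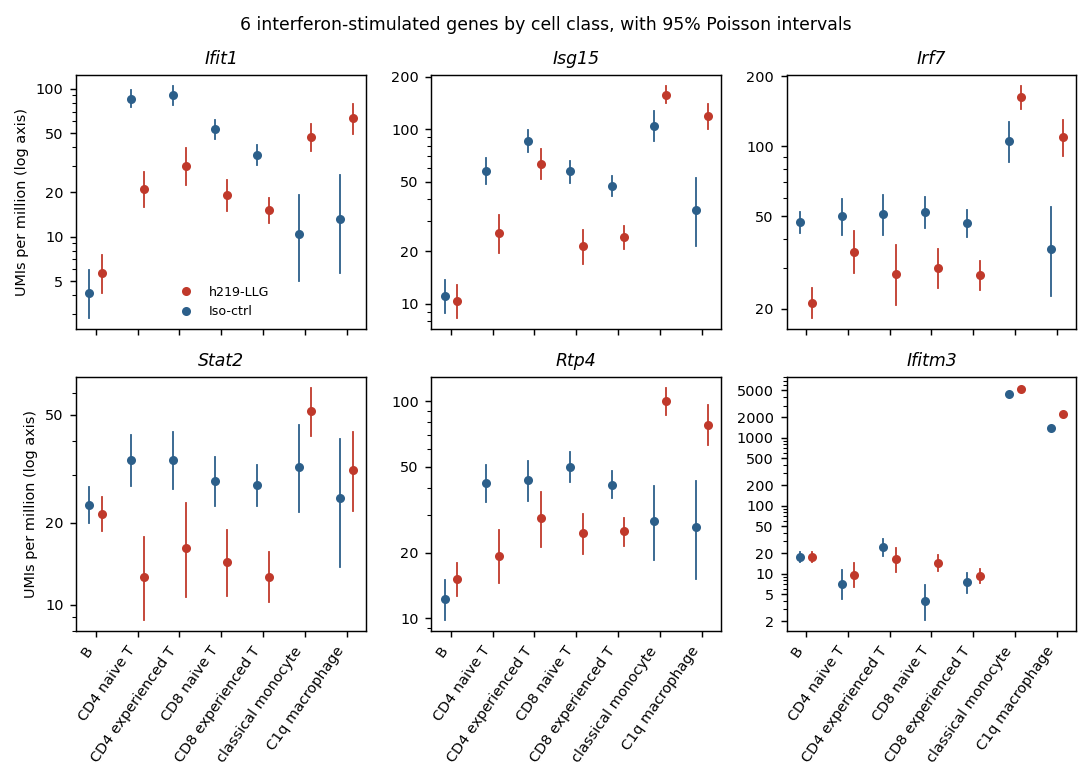
CPM (log axes) of Ifit1, Isg15, Irf7, Stat2, Rtp4 and Ifitm3 in 7 cell classes, red for h219-LLG and blue for Iso-ctrl, with exact Poisson intervals at 95%. Ifit1 stood at 20.9 and 85.7 CPM in CD4 naive-like T cells and at 62.9 and 13.2 CPM in C1q macrophage-like cells, while Ifitm3 was above 1000 CPM only in the myeloid classes shown.

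The other classes held fewer cells or smaller differences. The other T cells, which passed no finer gate, followed the T cell pattern with a summed ratio of 0.857 (0.833 to 0.882) and Ifit1 at 98 and 422 UMIs, a ratio of 0.247 (0.196 to 0.308). Treg-like cells, 70 and 112, had a summed ratio of 1.03 (0.973 to 1.09), with Ifi27l2a at 2431 and 2316 CPM and Isg15 at 0.586 (0.379 to 0.883). One h219-LLG cell held 18.1% of the member UMIs, and 277 of 1189 UMIs of Ifi27l2a. Without the highest cell of each library the direction turned, with a summed ratio of 0.914 (0.860 to 0.970) and Ifi27l2a at 0.895 (0.825 to 0.970). NK-like cells were at 1.04 (0.946 to 1.14) and neutrophil-like cells at 0.983 (0.926 to 1.04), both with intervals that include 1. Plasmacytoid dendritic-like cells were at 1.06 (1.01 to 1.11), with Bst2 at 0.914 (0.857 to 0.976) and Ifi27l2a at 1.86 (1.63 to 2.12). One of their 38 h219-LLG cells held 82 of 344 UMIs of Ifi27l2a. Without the highest cell of each library Ifi27l2a was at 1.54 (1.33 to 1.78). The summed ratio was then 1.05 (0.995 to 1.10), an interval that includes 1. Spp1 or Arg1 macrophage-like cells, 65 and 33, were at 0.953 (0.901 to 1.01), with Trim25 at 0.401 (0.287 to 0.557), so not all macrophages shared the direction of the C1q class. The 45 and 37 monocytes and macrophages outside the finer gates were at 1.56 (1.47 to 1.66) and the 33 and 20 migratory dendritic-like cells at 1.55 (1.38 to 1.74), with no order between these and the C1q macrophage-like cells beyond counting error. In the former Ifit1 had 78 UMIs with h219-LLG and 1 with Iso-ctrl. Of these 78 UMIs, 61 lay in 1 cell, and without the highest cell of each library the summed ratio was 1.42 (1.33 to 1.52).

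With h219-LLG, similar shares of CD4 naive-like T and C1q macrophage-like cells had an Ifit1 UMI. Such a cell held on average 1.19 and 4.93 of them with h219-LLG, and 2.06 and 2.00 with Iso-ctrl. In CD4 naive-like T cells Ifit1 had a UMI in 47 of 481 cells (9.77%) with h219-LLG and in 105 of 385 (27.3%) with Iso-ctrl, and a cell with a UMI held on average 1.19 and 2.06. Of B-like cells 1.28% and 1.14% had one, with a median of 3498 and 4238 UMIs a cell against 5546 and 6496 in CD4 naive-like T cells. With each cell thinned to 1000 UMIs, Ifit1 was found in 1.04% (0.339 to 2.41) and 8.83% (6.19 to 12.1) of CD4 naive-like T cells, so the shares also differed at equal depth. Without the highest cell of each library, an alternative chosen after the data were seen, the ratio was 0.240. In C1q macrophage-like cells 15 of 141 (10.6%) and 4 of 93 (4.30%) cells had an Ifit1 UMI. Of the 74 UMIs with h219-LLG, 1 cell held 22 and the 5 highest of 141 cells held 77.0%. The 5 highest of the 481 h219-LLG CD4 naive-like T cells held 21.4%, but the unlike class sizes limit this contrast. The ratio without the highest cell of each library was 6.68 (2.46 to 25.4). In classical monocyte-like cells 19 of 194 (9.79%) and 6 of 72 (8.33%) cells had an Ifit1 UMI, and the 5 highest h219-LLG cells held 71.4% of the UMIs. Thinned to 1000 UMIs, 3.68% (1.20 to 8.37) and 1.18% (0.0298 to 6.38) of C1q macrophage-like cells held Ifit1. For classical monocyte-like cells the thinned shares were 3.61% (1.46 to 7.29) and 0% (0 to 4.99). Both pairs of intervals overlap, so no difference in these shares is read at equal depth. Of the Rsad2 UMIs of h219-LLG C1q macrophage-like cells, 48.4% lay in 1 cell. The higher Ifit1 of both myeloid classes and the higher Rsad2 of C1q macrophage-like cells thus lay in few cells. Irf7, in contrast, was found in 26.2% and 11.8% of C1q macrophage-like cells, and Rtp4 in 81 of 194 and 18 of 72 classical monocyte-like cells.

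A score per cell, the member UMIs in 1000 thinned UMIs, showed the same split. At least 5 member UMIs were found in 7.71% (5.49 to 10.5) of h219-LLG and 15.8% (12.3 to 19.9) of Iso-ctrl CD4 naive-like T cells, and in 6.14% (4.44 to 8.23) and 13.4% (10.5 to 16.8) of CD8 naive-like T cells. In CD8 experienced-like T cells the shares were 6.44% (5.01 to 8.12) and 10.9% (8.41 to 13.8), and in B-like cells 10.4% (9.18 to 11.7) and 12.5% (11.0 to 14.2). In C1q macrophage-like cells they were 45.6% (62 of 136 cells, at least 37.0 by its interval) and 24.7% (21 of 85 cells, at most 35.3), and in classical monocyte-like cells 92.8% (88.2 to 96.0) and 81.9% (71.1 to 90.0). The thinning left out 5 and 8 C1q macrophage-like cells that were too shallow. Without thinning, scaled to the same total, 40.4% and 18.3% of C1q macrophage-like and 3.74% and 5.97% of CD4 naive-like T cells reached the mark. Few thinned cells held Ifit1, so whether members were found in the same cells could be read only roughly. Isg15 was found in 4 of 5 h219-LLG C1q macrophage-like cells with Ifit1 and in 12 of 131 without, and in 0 of 1 Iso-ctrl cells with Ifit1. In Iso-ctrl CD4 naive-like T cells Isg15 was found in 0 of 34 cells with Ifit1 and in 16 of 351 without. These values belong to a single class and library, and nothing is read from them for other T cell classes or for all cells.

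**Figure D4:**
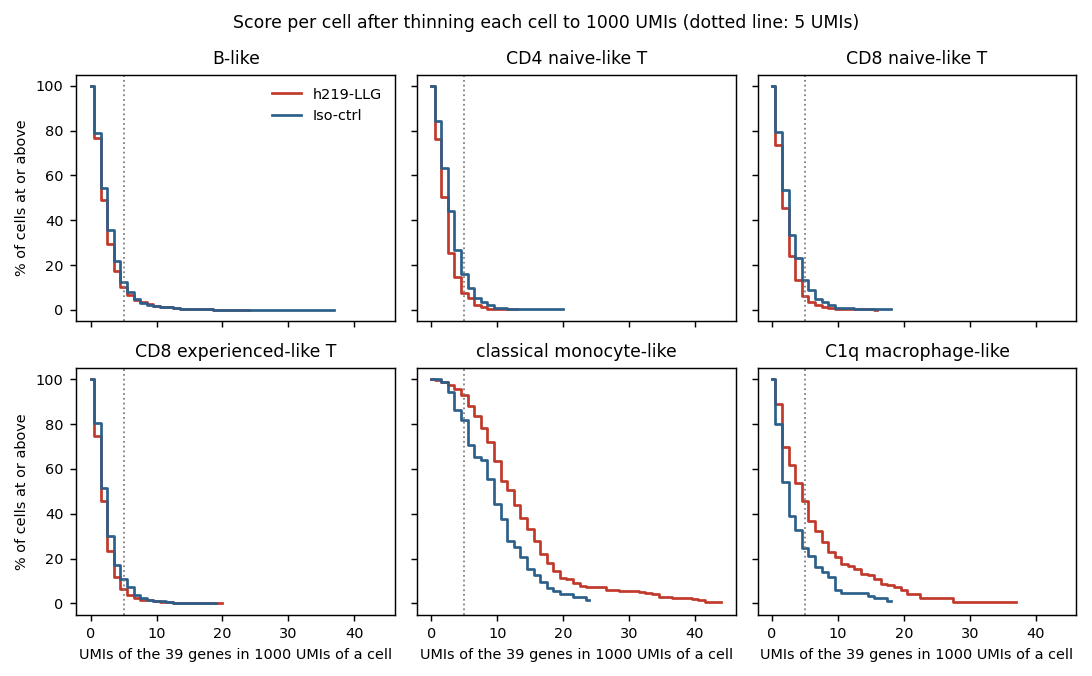
Share of cells (percent) with at least the number of member UMIs on the horizontal axis, after each cell was thinned to 1000 UMIs, for 6 cell classes, red for h219-LLG and blue for Iso-ctrl, with a dotted line at 5 UMIs. At that line CD4 naive-like T cells stood at 7.71% and 15.8%, and C1q macrophage-like cells at 45.6% and 24.7%.

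Likeness among members was described over 17 points, the class and library pairs with at least 100 cells, which share libraries and depth. The CPM of Stat2 followed the summed CPM of the other members most closely (Spearman's rho 0.83), then that of Ifi27l2a (0.73). Samd9l, an antiviral protein that was highest in B-like cells at 150 and 143 CPM, was the least alike (-0.25), then Ddx58 (-0.18).

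The genes around the members were taken from lists of the pathway. Of 21 interferon genes, all in the gene list, 4 had a UMI in kept h219-LLG cells and 5 in Iso-ctrl cells, and for the others a count of 0 allows up to 0.0745 and 0.0834 CPM at 3 counts of each library. Ifnb1, interferon beta, had 3 UMIs with h219-LLG and 27 with Iso-ctrl, of which 25 lay in 1 Iso-ctrl cell that passed the gates of several lineages. Ifnab had 2 UMIs in each library, Ifnz 1 in each, and Ifnk 5 in the Iso-ctrl library. Ifng, interferon gamma, had 709 and 783 UMIs. It was lower with h219-LLG in CD4 experienced-like T cells, at 37.8 and 81.3 CPM, a ratio of 0.465 (0.343 to 0.625). In NK-like cells it was higher, at 340 and 207 CPM, a ratio of 1.64 (1.33 to 2.01), and in CD8 experienced-like T cells it stood at 29.0 and 27.1 CPM, with an interval of the ratio from 0.854 to 1.34.

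Of 12 receptor and signalling genes measured in CD4 naive-like T cells, 5 were at least 1.5-fold lower with h219-LLG, against 5.89% of all genes, and none higher, against 10.0%. Ifngr1 and Ifngr2, the chains of the interferon gamma receptor, were at 0.544 (0.471 to 0.627) and 0.497 (0.433 to 0.569), and Ifnar1 at 0.964 (0.776 to 1.20). Irf3, a transcription factor that induces interferon genes, had the highest ratio, 1.05 (0.779 to 1.42), and Irf8, a factor of myeloid and B cells, the lowest, 0.191, with 13 and 64 UMIs. In C1q macrophage-like cells 4 of 11 were at least 1.5-fold higher, against 19.3% of all genes, and none lower, against 5.14%, with Irf5 lowest at 0.707 (0.526 to 0.953). Of the genes that induce interferon, Tmem173, which encodes STING, was at 1.83 (1.30 to 2.60) in CD4 naive-like T cells and Myd88, an adaptor of Toll-like receptors, at 2.10 (1.39 to 3.27) in C1q macrophage-like cells.

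Of 59 further interferon-stimulated genes that are no members, 41 were measured in CD4 naive-like T cells, where 12 were at least 1.5-fold lower, against 5.89% of all genes, and 3 higher, against 10.0%. In CD8 naive-like T cells 44 were measured, 12 of them lower, against 5.55%, and 2 higher, against 9.68%. The lower ones included GTPases that interferon gamma also induces, such as Irgm2 at 0.362 (0.219 to 0.583) and Igtp at 0.367 (0.305 to 0.440) in CD4 naive-like T cells. Ms4a4c, a membrane protein, was the highest, at 4.61 (2.22 to 10.7) with 44 and 9 UMIs. In C1q macrophage-like cells 21 of 25 were at least 1.5-fold higher, against 19.3% of all genes, and none lower, against 5.14%, Ly6a, the surface protein Sca-1, highest with 130 and 5 UMIs, at a ratio of 13.4 (5.60 to 42.0), and Ifitm1 lowest at 0.829 (0.587 to 1.18). Ly6a reached the minimum of UMIs by its h219-LLG count alone, and that library held more UMIs of this class, 1177279 against 607036. The count of 21 can include further genes kept through the library where they were high. In classical monocyte-like cells 19 of 40 were higher, against 9.66% of all genes, and none lower, against 5.18%. Genes could reach the minimum through the h219-LLG library there too. In CD8 experienced-like T cells 10 of 48 were at least 1.5-fold lower, against 5.62%, and 6 higher, against 7.84%, and their median log2 ratio was -0.02, that of the members there -0.17. In the other T cells 26 were above 1 and 22 below, with a median of 0.06 against -0.18 for the members. The further genes were thus split in those classes, where most members were below 1.

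Genes of dissociation stress, which cells switch on while tissue is taken apart, gave these values. In CD4 naive-like T cells 2 of 12 were at least 1.5-fold higher with h219-LLG and 1 lower, near the 10.0% and 5.89% of all genes, with a median log2 ratio of -0.17, Jun at 2.45 (2.21 to 2.71) and the chaperone Hspa8 at 0.585 (0.554 to 0.617). In CD8 naive-like T cells 4 of 14 were lower, against 5.55%, and 1 higher, against 9.68%, Jun at 2.59 and Hspa1b at 0.124. In CD4 experienced-like T cells 6 of 15 were lower, against 7.16%, and 0 higher, against 6.15%, with a median of -0.49. CD8 experienced-like T cells had 6 of 15 lower, against 5.62%, and 0 higher, against 7.84%, with a median of -0.44. In classical monocyte-like cells 6 of 15 were lower, against 5.18%, and 1 higher, against 9.66%, and Hspa1b was at 0.0523, with 93 and 888 UMIs. In C1q macrophage-like cells 4 of 15 were higher, against 19.3%, and 1 lower, against 5.14%. Their median log2 ratio there was 0.22, that of all genes 0.11, and Fos was at 2.24. Whether handling of the tumors has a part in the members' values was not tested.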

How the data were processed

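Live CD45+ cells of the tumors were measured in 2 single cell 3′ v2 libraries, 1 per condition, and samples were grouped by their titles. The authors deposited raw UMI counts per gene and barcode, made with Cell Ranger 5.0.0 on mm10 by the submitters' processing notes. The members, lists and gates were chosen with earlier results of these data known.

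Barcodes were kept at 200 genes, 500 UMIs and under 10% mitochondrial UMIs, and those with the highest doublet score (0.8% per 1000 barcodes, scored against simulated doublets as Scrublet does) were removed. Classes were gated on marker UMIs, for example at least 2 of Cd3d, Cd3e and Cd3g for T cells and 2 of C1qa, C1qb and C1qc for C1q macrophages. Experienced T cells had at least 2 UMIs of activation or effector genes. Naive T cells had none or 1 and a UMI of a marker of naive cells, Ccr7 and Lef1 among them.

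UMIs were summed per class and library. CPM had exact Poisson, shares exact binomial (Clopper-Pearson) and ratios exact binomial split intervals. Members with at least 50 UMIs over both libraries in a class were measured, and a ratio past 1.5-fold was counted. A gene could thus reach the minimum through the library where it was high. Values in full go to the 3 highest and 3 lowest ratios of each class, the 2 members with the most UMIs of each role and the extremes of the pathway lists, and further members are named where singled out after their values were seen. Gene positions were matched in GENCODE vM21 (GRCm38), for 39 of 39 members. Python 3.11.15, NumPy 2.4.6, SciPy 1.17.1, pandas 2.3.3, scikit-learn 1.9.0 and matplotlib 3.10.9 were used, and the steps were tested on simulated data. Other filters, gates, denominators, scalings, minimums and folds were tried.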

Additional observations from a re-analysis of the deposited data

Results flagged for a closer look

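The summed members went in opposite directions in cell classes of the same libraries. The ratio, h219-LLG over Iso-ctrl, was 0.711 in CD4 naive-like T cells and 0.808 in CD8 naive-like T cells, against 1.54 in C1q macrophage-like and 1.32 in classical monocyte-like cells. For Ifit1 it was 0.244 and 0.361 in these T cells, against 4.77 and 4.55. With 1 library per condition the difference between classes was not tested.

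The members were also higher with h219-LLG in barcodes that entered no class. These sets mix lineages, and the part of the mixture was not tested. Over all kept cells the monocyte and macrophage gate genes stood at 2372 CPM with h219-LLG and 1330 CPM with Iso-ctrl. In 205 and 145 cells that passed the gates of several lineages the summed level was 4753 and 3607 CPM, a ratio of 1.32 (1.29 to 1.35). In 355 and 326 cells that passed no gate the ratio was 1.27 (1.20 to 1.35). In 1374 and 526 barcodes left out by the filter on genes, UMIs and mitochondrial share it was 1.23 (1.16 to 1.31), and in 524 and 275 left out by the doublet score 1.25 (1.22 to 1.28).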

How the results depend on the processing

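The summed ratio was below 1 in B-like cells and the 4 T cell classes under all 12 alternatives of each (CD4 naive-like T cells 0.682 to 0.740), and above 1 in classical monocyte-like (1.27 to 1.51, 12 alternatives) and C1q macrophage-like cells (1.35 to 2.68, 13 alternatives). The sum over all kept cells had no stable direction. Of 226 counts of members past a fold, 176 stayed within 1.5 times. Under thinning and stricter filters or minimums fewer members were measured. For the other moves the cause was not tested. Leaving out the 5% deepest cells, Ifi27l2a and Ifitm3, cells with Ly6c2 or the highest cell was chosen after seeing the data. Depth limits the small classes most.

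With all deposited barcodes the ratio over all cells was 1.10, without doublet removal 1.11. With 200 to 2500 genes and under 5% mitochondrial UMIs it was 1.000 over all cells (4 members higher), 0.933 in B-like, 2.68 in C1q macrophage-like (2 higher, Trim25 at 1.61) and 1.38 in classical monocyte-like cells (9 higher). With 1 more marker per gate it was 0.740 in CD4 naive-like T, 0.800 in CD8 experienced-like T, 1.35 in C1q macrophage-like (15 higher) and 1.27 in classical monocyte-like cells. Without mitochondrial and ribosomal protein genes in the denominator it was 1.10 over all cells, 0.911 in B-like and 0.861 in CD8 experienced-like T cells. With median-of-ratios scaling it was 1.03 (3 higher), 0.862 in B-like, 0.682 in CD4 naive-like T, 1.43 in C1q macrophage-like and 1.28 in classical monocyte-like cells. As a mean over cells it was 1.02 (4 higher), 0.851 in CD4 experienced-like T, 2.05 in C1q macrophage-like (Trim25 at 1.19) and 1.37 in classical monocyte-like cells.

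Thinned to 1000 UMIs, it was 1.02 over all cells, 0.909 in B-like (0 higher), 0.767 in CD8 naive-like T (3 lower), 1.84 in C1q macrophage-like (1 higher) and 1.38 in classical monocyte-like cells (4 higher), with 2 members lower in CD4 naive-like and 0 in CD4 experienced-like T cells (Phf11b at 0.965). Without the deepest cells it was 1.10, 0.920 in B-like, 0.857 in CD4 experienced-like T, 1.72 in C1q macrophage-like and 1.39 in classical monocyte-like cells, and without C1q cells with Ly6c2 1.84 (10 higher). Without the member with the most UMIs it was 1.10, 0.938 in B-like, 0.862 in CD8 experienced-like T and 1.43 in classical monocyte-like cells. Without Ifi27l2a and Ifitm3 it was 0.968, 0.937 in B-like, 0.860 in CD8 experienced-like T, 1.96 in C1q macrophage-like and 1.51 in classical monocyte-like cells. At a fold of 2, 0 members were higher over all cells (2.01% of all genes), 1 in B-like (1.32%) and 8 in classical monocyte-like cells (2.18%), and 5, 3, 4 and 3 lower in CD4 naive-like (1.49%), CD4 experienced-like (1.62%), CD8 naive-like (1.18%) and CD8 experienced-like T cells (1.56%). At 100 UMIs, 0 were higher in B-like and 13 in C1q macrophage-like cells.

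No paired analysis was possible because each condition has 1 library, and no library was left out.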
